A study of Mus musculus with 24 samples.

Results

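The genes described here are *Mapk8ip3* and the JNK scaffold and kinase genes around it, a set of 9 named genes that were looked up by symbol in the deposited table of 13998 genes, where all 9 were present. *Mapk8ip3* was selected on its normalized counts in the 2 genotypes, which were already known to differ, so these counts are given as a description, with no test. The other 8 (*Spag9*, *Mapk8ip1*, *Mapk8ip2*, *Mapk8*, *Mapk9*, *Mapk10*, *Map2k4* and *Map2k7*) were chosen for what their proteins do. *Mapk8ip3* lies in the CAST segment of mouse chromosome 17, the stretch where the mice differed by descent. It is inside the confidence intervals that linkage gave for C/P intake, total intake and food volume (C/P, carbohydrate/protein diet). The gene is just outside the narrower interval that the study reached with another subcongenic strain, which lacked these intake traits. The other 8 members lie on other chromosomes. Expression was measured by SAGE-Seq, in which 1 short tag near the 3′ end of each mRNA is sequenced and counted, in the hypothalamus of 24 adult male F2 mice with 1 library per mouse. The F2 came from crossing the subcongenic strain B6.CAST-17.1, which carries CAST/EiJ DNA on this part of chromosome 17, with C57BL/6J. Of the mice, 12 were homozygous for the CAST allele across the segment (*cast/cast*) and 12 were homozygous for the C57BL/6J allele (*b6/b6*), and both groups carried C57BL/6J DNA elsewhere. Every mouse had chosen between a carbohydrate/protein (C/P) and a fat/protein diet for 10 d and had been given those diets again for 48 h before tissue was taken. The *cast/cast* mice sequenced were picked for high and the *b6/b6* mice for low C/P and total intake. Genotype and intake therefore cannot be told apart in the contrast.

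JNK kinases are stress-activated members of the MAP kinase family that are switched on by the kinases MKK4 (*Map2k4*) and MKK7 (*Map2k7*), which are themselves activated by MAP3 kinases. Scaffold proteins of the JIP group hold these layers together and also link cargo to kinesin and dynein motors in axons. JIP3 (*Mapk8ip3*) and the related JIP4 (*Spag9*) are long coiled-coil adaptors best known for the transport of lysosomes and signalling vesicles in neurons, whereas JIP1 (*Mapk8ip1*) and JIP2 (*Mapk8ip2*) form a separate pair unrelated to them in sequence. In the hypothalamus JNK signalling is known as a link between overnutrition and reduced responses to insulin and leptin.

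The libraries held 7754202 to 13082873 tag hits each. Of 13 hypothalamic marker genes, 12 had more than 3 hits in every mouse, and of 42 cell type markers measured only *Tcf7l2*, a thalamic marker, was called between the genotypes. A total of 4 mice stood far from the others of their genotype, with a median Spearman correlation to them of 0.872 to 0.923 against 0.932 to 0.971 for the remaining 20. They were *b6/b6* replicates 6 and 12 and *cast/cast* replicates 4 and 6. In these *b6/b6* mice the summed count of the endothelial markers was 409 to 479, against a median of 149 in the genotype, and that of the blood markers 818 to 2686, against 323. Their pituitary markers summed to 159 to 470 (median of the genotype 35.9) and their microglial markers to 1158 to 1185 (median 1729). Colony numbers fell into 5 runs of neighbouring numbers, of which 3 held mice of both genotypes. All 4 far mice were in the first run, where they were both of the *cast/cast* mice and 2 of the 4 *b6/b6* mice. Fits with the runs as a factor and fits without the far mice are therefore not separate checks. The median study number was 120.5 for *cast/cast* mice against 269.5 for *b6/b6* mice, so study number and genotype are partly confounded.

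The tags by which these genes are counted are shown for the JIP genes and *Mapk9*, since each count below rests on so short a sequence. Each is the 27 bases that start at the CATG nearest the 3′ end of an annotated transcript, read 5′ to 3′ from GENCODE transcripts linked to RefSeq on GRCm38, with CATG, the site of the anchoring enzyme NlaIII, in capitals.
Mapk8ip3, 5 of 7 transcripts: CATGagtgtgacgtgaccagggttagt
Mapk8ip3, 2 of 7 transcripts: CATGggcaccgtgatgctgtcaaattc
Spag9: CATGaaatatatataaatatgtatatg
Mapk8ip1: CATGccacctggaagtgtccagcttcc
Mapk8ip2: CATGtggccctcggtcactcttgacag
Mapk9: CATGtccaattcctgtgtgtttcaaag
The first *Mapk8ip3* tag lies at chr17:24897640-24897666 on the minus strand in the 3′ UTR, 107 bases before the end of the transcript. The second lies at chr17:24899412-24899438, also on the minus strand, in a coding exon, 437 and 288 bases before the ends of its 2 transcripts. Neither was found in a transcript of another gene. The *Spag9* tag is at chr11:94126054-94126080 (plus strand), the *Mapk8ip1* tag at chr2:92383971-92383997 (minus strand) and the *Mapk9* tag at chr11:49886106-49886132 (plus strand), each in the 3′ UTR. The *Mapk8ip2* tag, at chr15:89464388-89464414 on the plus strand, is also in the 3′ UTR but beyond the end that the deposited table gives for the gene, at base 89462447. The table gives hits per gene, not per tag, so which of these sequences supplied the hits was not examined. They are reference sequences. Whether the CAST alleles differ at them was not tested, and a count of *cast/cast* mice is therefore a count of tags that aligned to the reference.

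Aligned tags of *Mapk8ip3* (chr17:24897506-24936977, minus strand) were abundant in *b6/b6* and scarce in *cast/cast* hypothalamus. In *b6/b6* mice its normalized count had a lowest value of 2277, a median of 3686 and a highest value of 4120. In *cast/cast* mice the lowest was 6.46, the median 77.9 and the highest 143.6. Every *cast/cast* mouse was below every *b6/b6* mouse, and the highest of the former was far under the lowest of the latter. Means were 3376 ± 715 (SD, n = 12) and 76.4 ± 40.4 (n = 12), a level in *cast/cast* of 2.26% of that in *b6/b6* and a log2 difference of -5.76 (SE 0.35). Groups without overlap were found for 0.336% of all genes. By mean count *Mapk8ip3* ranked 505th of 13998 genes in *b6/b6* and 8833rd in *cast/cast* mice.

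**Figure D1:**
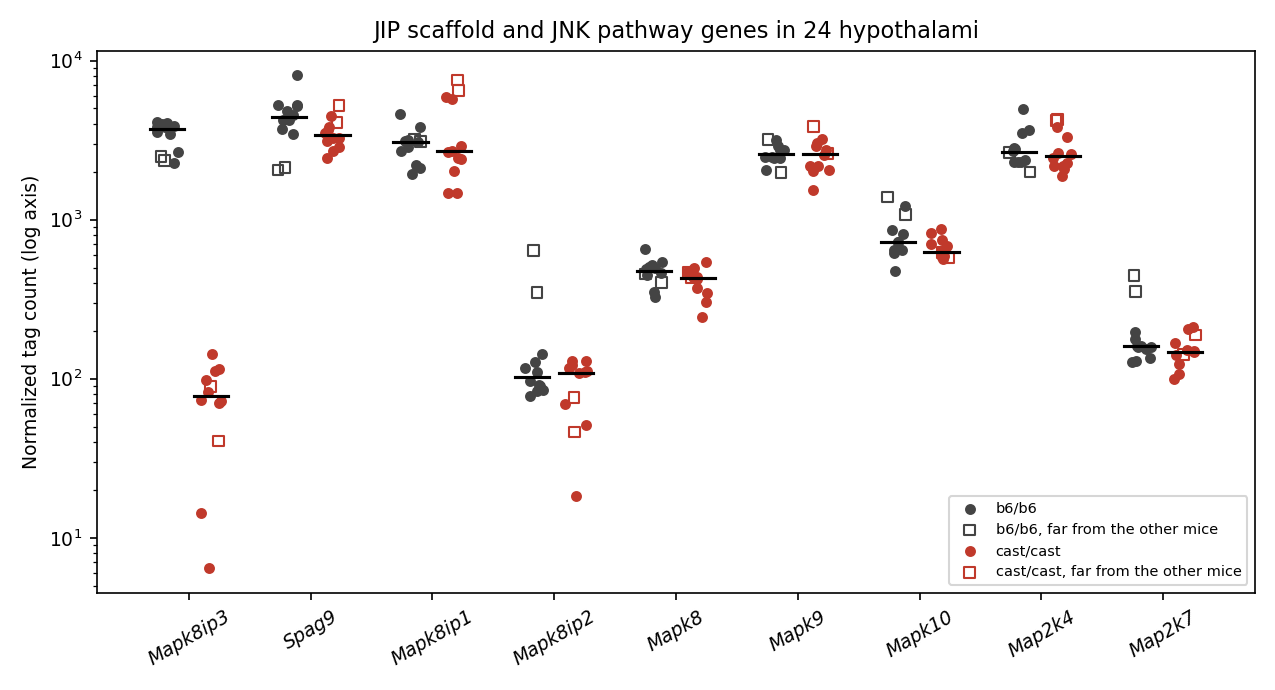
Normalized tag counts (log axis) of the 9 genes in each of 24 mice, with *b6/b6* in grey and *cast/cast* in red, black bars at the medians and open squares for the 4 mice far from the others. *Mapk8ip3* is the only one of the 9 whose genotypes do not overlap, with medians of 3686 and 77.9, and the open squares of *b6/b6* lie above the other mice for *Mapk8ip2* and *Map2k7*.

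The 12 *b6/b6* libraries held 42356 *Mapk8ip3* hits in sum and the 12 *cast/cast* libraries 944. The lowest *cast/cast* mouse, replicate 1, had 6 hits (exact Poisson 95% interval 2.20 to 13.1) and the highest, replicate 9, had 152 (129 to 178). Such intervals cover counting error only, since tags carry no molecular identifiers. The spread among mice was larger in *cast/cast*, with an SD of 1.27 on the log2 scale against 0.33 in *b6/b6*, and replicates 1 and 8 (6.46 and 14.3) lay well below the next mouse, replicate 4, at 40.6. In *b6/b6* mice the values fell on both sides of a gap. Replicates 1, 6, 12 and 10 had 2277, 2351, 2494 and 2670, and the other 8 mice ran from 3469 to 4120. Replicates 6 and 12 of this lower group are the mice that stand far from the others, and leaving out all 4 such mice gave a log2 difference of -5.85.

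The difference was similar within each run of neighbouring colony numbers that held both genotypes. It was -5.66 on the log2 scale in the first run (4 *b6/b6*, 2 *cast/cast*), -5.95 in the second (1 and 5) and -6.05 in the fourth (2 and 4). Both *cast/cast* mice of the first run were far from the others. Among the 429 measured genes of the CAST segment, of which 24.5% were called, *Mapk8ip3* had the largest fall in mean normalized count, 3300, followed by *Mtch1* with 1728, and the 6th lowest log2 difference. Because brain is a mixture, a lower count in bulk tissue can come from fewer cells of a type or from less RNA per cell. CAST tags that do not align to the reference would lower it too. A bulk count alone cannot tell these apart. The summed counts of neuronal markers had medians of 26682 in *b6/b6* against 30417 in *cast/cast* mice. The medians were 10918 against 12332 for astrocytes, 20549 against 25716 for oligodendrocytes and 1729 against 1744 for microglia. They were 149 against 134 for endothelium and 323 against 133 for blood. Whether cell make-up had a part in the *Mapk8ip3* count was not tested.

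Genes beside *Mapk8ip3* did not all move with it. *Eme2*, the third gene along on the side of the 3′ end and a subunit of a structure-specific DNA endonuclease, fell without overlap, from 251.7 ± 104 to 12.8 ± 6.35 (log2 difference -4.27, SE 0.28, limma adjusted P = 6.07e-12). *Spsb3*, a substrate adaptor of a ubiquitin ligase, was called lower on its unadjusted P and ratio (76.2 ± 37.7 to 33.9 ± 18.1, log2 difference -1.13, SE 0.31, limma adjusted P = 0.150). *Nme3*, a nucleoside diphosphate kinase, is the adjoining gene on this side and lies on the opposite strand, and its annotated end overlaps that of *Mapk8ip3* by 24 bases. Its count was 1737 ± 467 against 2507 ± 434 in *cast/cast* mice, a log2 difference of 0.56 (SE 0.15, limma adjusted P = 0.112) with a ratio of 1.44, under the ratio of 1.5 required for a call. The mitochondrial ribosomal gene *Mrps34*, between *Nme3* and *Eme2*, and *Hn1l*, *Cramp1l*, *Ift140* and *Tmem204* on the other were not called, with log2 differences from -0.38 to 0.24. Of 46 genes with starts within 500 kb, 8 including *Mapk8ip3* were called lower and 3 higher. Over the whole CAST segment 24.5% of genes were called in either direction, so such calls were not particular to this neighbourhood.

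**Figure D2:**
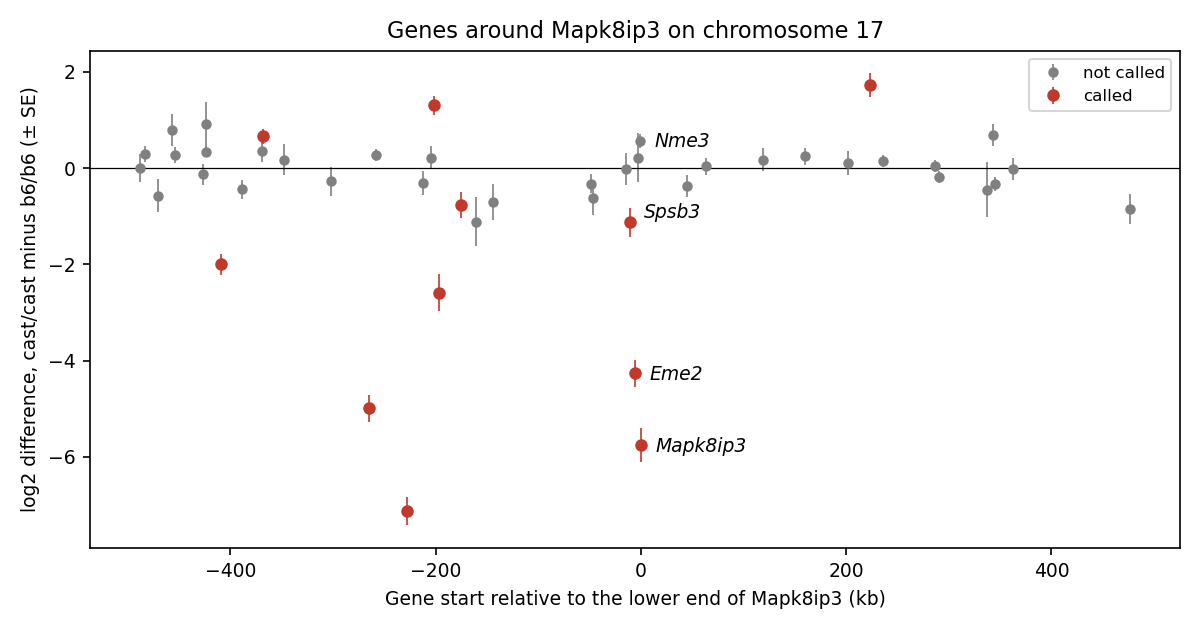
Log2 difference (*cast/cast* minus *b6/b6*, bars ± SE) of 46 genes against the distance of their start from the lower end of *Mapk8ip3* in kb, called genes in red and others in grey. *Mapk8ip3* lies at -5.76 and *Eme2* at -4.27, and *Nme3* and *Mrps34* between them, at 0.56 and 0.21, were not called.

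*Spag9*, which encodes JIP4, the nearest relative of JIP3 and like it a lysosome and vesicle adaptor, had counts of a similar order in *b6/b6* hypothalamus. In *b6/b6* mice its lowest, median and highest normalized counts were 2052, 4399 and 8065, and in *cast/cast* mice 2449, 3378 and 5202. The groups overlapped, with *b6/b6* values at both ends of the range. The log2 difference was -0.26 (SE 0.18, 95% interval -0.63 to 0.11, limma adjusted P = 0.682), so no change passed the test. The 2 lowest *b6/b6* values, 2052 and 2119, were those of replicates 6 and 12, and the highest *cast/cast* value, 5202, was that of replicate 6, all mice far from the others. Without the 4 far mice the means were 4870 and 3309 and the log2 difference was -0.54 (SE 0.14, unadjusted P = 0.000751, limma adjusted P = 0.112), with a ratio of 0.679 that missed the cutoff for a call. With the runs of colony numbers as a factor it was 0.04, on the other side of 0. No fit called *Spag9*.

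*Mapk8ip1* encodes JIP1, a scaffold also known as islet-brain protein. Its lowest, median and highest counts were 1936, 3073 and 4607 in *b6/b6* and 1478, 2681 and 7536 in *cast/cast* mice. The *cast/cast* values fell apart, since replicates 4, 6, 5 and 8 had 7536, 6488, 5925 and 5706, all above every *b6/b6* mouse, and the other 8 mice had 2920 or less. Those 4 also had the lowest median correlations with their own genotype, 0.923, 0.888, 0.932 and 0.940. Over all mice the log2 difference was 0.11 (SE 0.24, 95% interval -0.39 to 0.61, limma adjusted P = 0.907). With the runs as a factor it was 0.72 (SE 0.26, unadjusted P = 0.0118, limma adjusted P = 0.116), and without the far mice it was -0.10. The direction therefore depended on the mice and terms included, and no fit called it.

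*Mapk8ip2* encodes JIP2, a neuronal scaffold found at synapses. Counts were 78.1 at the lowest, 103 at the median and 638 at the highest in *b6/b6* mice, and 18.3, 109 and 129 in *cast/cast* mice. The medians were close, and the mean of *b6/b6* (168 against 90.7) was set by replicates 6 and 12 at 349.5 and 638. The log2 difference of -0.68 (SE 0.33, 95% interval -1.37 to 0.0038) had an unadjusted P of 0.0512 and a limma adjusted P of 0.612. The unadjusted P was 0.0191 with edgeR, 0.0111 with DESeq2 and 0.0216 with study number as a covariate, and with the runs as a factor the log2 difference was -0.97 (SE 0.44, unadjusted P = 0.0364, limma adjusted P = 0.165). It was -0.23 (SE 0.27) without the 4 far mice. The endothelial, blood and pituitary markers given above were high and the microglial ones low in the same *b6/b6* mice, and their part in the *Mapk8ip2* count was not tested.

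Since *Mapk8ip3* was the member selected for its fall, its place among the scaffolds is given as a description. *Mapk8ip3* made up 31.2 ± 5.79% of the tags of the 4 JIP genes in *b6/b6* mice (19.7 to 39.7%) and 1.20 ± 0.79% in *cast/cast* mice (0.121 to 2.43%). Of the tags of *Mapk8ip3* and *Spag9* together it made up 44.5 ± 7.70% and 2.21 ± 1.30%. The summed count of the 4 JIP genes was 10934 ± 2005 in *b6/b6* against 7344 ± 2724 in *cast/cast* mice. These are counts of sequenced tags without molecular identifiers, so they are not counts of molecules. Genes may also differ in how well their tag is captured. Without *Mapk8ip3*, the share of *Mapk8ip1* in the tags of *Mapk8ip1* and *Mapk8ip2* was 94.8 ± 4.22% and 96.5 ± 2.54%, and the difference of 1.76 points did not pass a permutation test (P = 0.244, adjusted P = 0.399).

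The 3 JNK genes had overlapping counts in both genotypes. *Mapk9* (JNK2) was the most counted, with a lowest value of 1979, a median of 2592 and a highest value of 3179 in *b6/b6* mice, set against 1525, 2574 and 3839 with *cast/cast*. The medians differed by far less than the range within either genotype. Its log2 difference was -0.05 (SE 0.13, 95% interval -0.32 to 0.22, limma adjusted P = 0.931). *Mapk10* (JNK3), the form expressed mainly in neurons, had 474, 721 and 1389 in *b6/b6* and 566, 629 and 867 in *cast/cast* mice. Its higher *b6/b6* values included those of replicates 12 and 6, at 1389 and 1081. The log2 difference was -0.25 (SE 0.15, 95% interval -0.55 to 0.06, limma adjusted P = 0.642), and -0.09 without the far mice. *Mapk8* (JNK1), the form linked to insulin resistance in obesity, had 326, 476 and 654 in *b6/b6* and 246, 431 and 543 in *cast/cast* mice, a log2 difference of -0.19 (SE 0.13, 95% interval -0.47 to 0.08, limma adjusted P = 0.677).

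The make-up of the JNK tags was likewise not distinguishable between the genotypes. *Mapk9* made up 67.0 ± 5.72% in *b6/b6* against 69.6 ± 6.23% in *cast/cast* mice, *Mapk10* 20.9 ± 5.57% and 19.0 ± 5.50%, and *Mapk8* 12.1 ± 2.07% and 11.4 ± 2.07%. The differences were 2.68, -1.95 and -0.73 points, each smaller than the SD within a genotype (two-sided permutation tests with 100000 resamples, P = 0.282, 0.399 and 0.392, each 0.399 after adjustment over 5 shares).

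Of the 2 kinases that activate JNK, *Map2k4* (MKK4) was far more counted than *Map2k7* (MKK7). *Map2k4* counts were 1992 at the lowest, 2663 at the median and 4953 at the highest in *b6/b6* mice, and 1878, 2522 and 4241 in *cast/cast* mice. The log2 difference was -0.03 (SE 0.16, 95% interval -0.36 to 0.30, limma adjusted P = 0.966). The 4 highest *cast/cast* values, 4241, 4183, 3823 and 3283, belonged to replicates 6, 4, 8 and 5, the mice that were also highest for *Mapk8ip1*. *Map2k7* counts were 127, 160 and 445 in *b6/b6* and 99.0, 148 and 211 in *cast/cast* mice, with a log2 difference of -0.28 (SE 0.19, 95% interval -0.66 to 0.11, limma adjusted P = 0.677). Its 2 highest *b6/b6* values, 445 and 353, were again those of replicates 12 and 6, and without the 4 far mice the difference was -0.08. One of its annotated tags also occurs in a transcript of the gene model *Gm49320*, so a part of its hits may not be its own. *Map2k7* made up 6.80 ± 3.86% of the tags of both kinases in *b6/b6* against 5.56 ± 2.14% in *cast/cast* mice (permutation P = 0.356, adjusted P = 0.399).

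**Figure D3:**
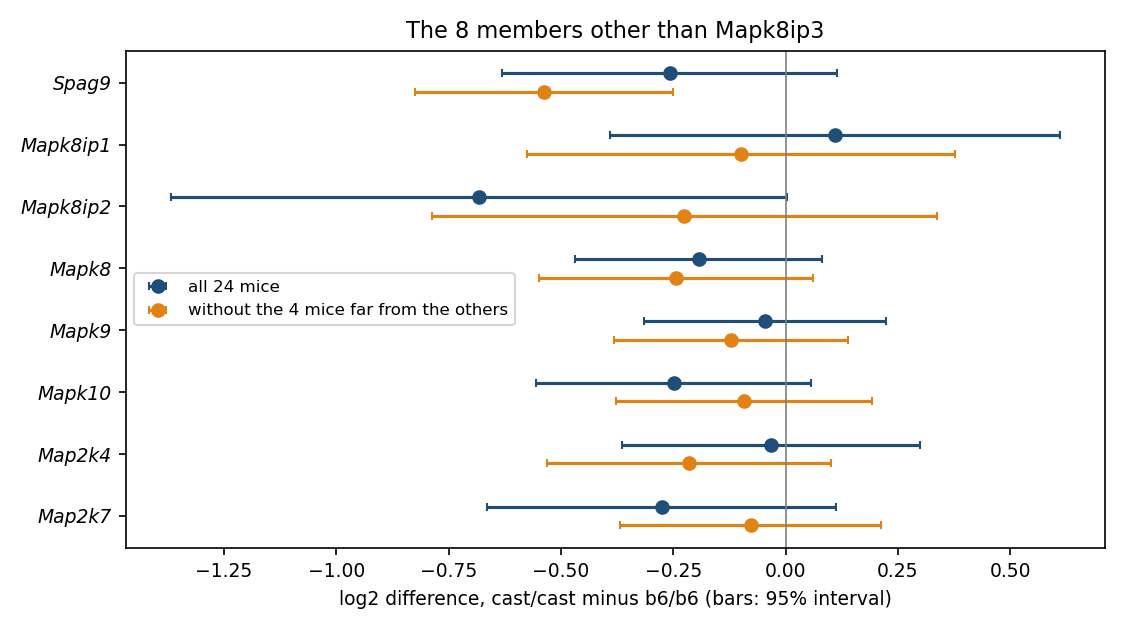
Log2 difference (*cast/cast* minus *b6/b6*) with its 95% interval for the 8 members other than *Mapk8ip3*, over all 24 mice in blue and without the 4 far mice in orange. Among the blue points *Mapk8ip2* is lowest at -0.68 and *Mapk8ip1* highest at 0.11, and among the orange points *Spag9* is lowest at -0.54.

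None of these 8 members was called, where 1.49% of all genes and 0.713% of the genes outside the segment were. A gene was called when its unadjusted limma P was at most 0.01 and the ratio of means at least 1.5. In this fit none had an unadjusted P under 0.05 either, where 8.13% of all genes did, and neither edgeR nor DESeq2 called any. *Mapk8ip1*, *Mapk8ip2*, *Mapk10* and *Spag9* had an unadjusted P under 0.05 in at least 1 alternative fit, with adjusted P of 0.112 or more. Their median log2 difference was -0.22, against -0.02 over all genes tested, and 7 of the 8 estimates were below 0. With the far mice left out, all 8 estimates were below 0, but with the runs as a factor *Mapk8ip1*, *Map2k4*, *Mapk9* and *Spag9* were above it. The direction of the 8 as a group was not tested.

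The rest of the pathway was read from 5 lists of genes that act before, after or beside JNK, of which 84 of 92 genes were measured. With limma none was called in either direction, where 1.49% of all genes were. A total of 8 had an unadjusted P under 0.05 (3 higher, 5 lower in *cast/cast*), where 8.13% of all genes did. The median log2 difference of the 84 was -0.06. Of the 20 upstream MAP3 and MAP4 kinases measured, 4 had such a P. *Taok2* had a log2 difference of 0.53, *Map3k7* (TAK1) of -0.33, *Map3k3* (MEKK3) of -0.70 and *Map4k3* of -0.85, with limma adjusted P from 0.532 to 0.607. Of 16 JNK substrates measured, 2 had such a P. They were *Jun*, the transcription factor subunit after which the kinases are named (from 724 to 913, log2 difference 0.37, SE 0.14, limma adjusted P = 0.543), and *Itch*, a ubiquitin ligase that JNK phosphorylates (60.2 and 28.8, log2 difference -0.72, SE 0.29, limma adjusted P = 0.548). None of the 9 phosphatases had such a P. Of 12 other scaffolds, *Crk* had a log2 difference of -0.27, and of 27 motor and cargo partners *Dctn2*, a dynactin subunit, had one of 0.36 (limma adjusted P = 0.607 for both). *Itch* was called by both edgeR and DESeq2 on the tag hits and *Map4k3* by edgeR, and *Map3k3* and *Junb* were called by limma without the far mice. Leaving out those mice brought the log2 difference of *Itch* to -0.38 (unadjusted P = 0.0579) and that of *Map4k3* to -0.24 (unadjusted P = 0.416), so the sizes of these estimates rested on them. With the runs as a factor, limma gave *Map3k3* a log2 difference of -0.26 (unadjusted P = 0.439). For *Junb* it was -0.23 (unadjusted P = 0.469) in that fit, against 0.42 in the main fit. Of the list genes that lie in the CAST segment themselves, neither *Map3k4* (MEKK4; 635 and 709, log2 difference 0.13) nor *Dusp1*, a JNK phosphatase (48.5 and 51.6, log2 difference -0.04), was called.

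Intake varied among mice of the same genotype, which allowed the members to be set against it without using the contrast that chose *Mapk8ip3*. The mice had been selected on intake, so its range within a genotype was narrowed. C/P intake over 10 d ran from 27.4 to 41.0 kcal in *b6/b6* and from 77.8 to 106.6 kcal in *cast/cast* mice, and total intake from 94.8 to 120.2 and from 104.0 to 133.1 kcal. The 36 correlations, of 9 genes with 2 intakes in 2 genotypes, ran from r = -0.91 to 0.58. None passed after adjustment over all 13998 genes (limma regression, lowest adjusted P = 0.0866). Relations with intake were common among all genes in part of these comparisons, since 26.3% of all genes had an unadjusted P under 0.05 with total intake in *cast/cast* and 23.8% with C/P intake in *b6/b6* mice, against 2.81% with total intake in *b6/b6* and 2.41% with C/P intake in *cast/cast* mice. These shares depended on the mice and terms included. With the runs as a factor the first became 3.08% and the last 11.9%, and without the 2 mice farthest from the median intake the first became 6.19% and the second 7.86%.

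The closest relation was that of *Mapk9* with total intake in *cast/cast* mice. Its count ran from 3839 in replicate 4, which ate 104.0 kcal, down to 1525 in replicate 1, which ate 133.1 kcal. Pearson's r was -0.91 (n = 12, permutation P = 5e-05) and Spearman's rho -0.93 (permutation P = 6e-05), and *Mapk9* ranked 1st of 13998 genes by the size of r. The limma adjusted P was 0.104. Without the 2 mice farthest from the median intake r was -0.86 (permutation P = 0.00157), after removing the means of the colony runs -0.83, and without the 2 far mice -0.87. In these fits the limma adjusted P was 0.787, 0.962 and 0.203, and *Mapk9* ranked 18th, 39th and 44th. In *b6/b6* mice r was -0.22 (permutation P = 0.484). Whether the genotypes differ in this relation was not tested.

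**Figure D4:**
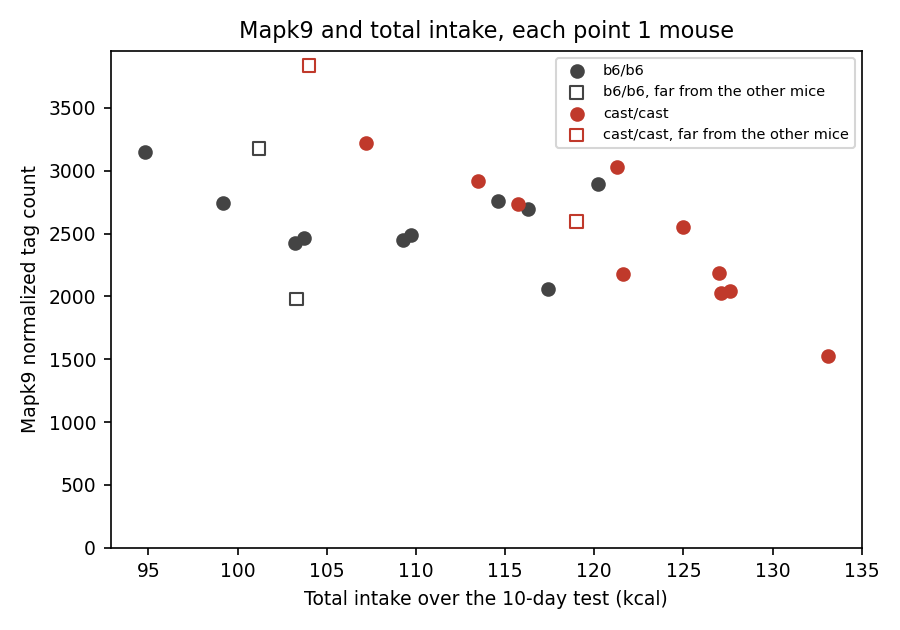
*Mapk9* normalized tag count against total intake over the 10 d test in kcal, each point 1 mouse, with *b6/b6* in grey, *cast/cast* in red and open squares for mice far from the others. In *cast/cast* mice the count falls from 3839 at 104.0 kcal to 1525 at 133.1 kcal, and *b6/b6* mice show r = -0.22.

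*Mapk8ip3* itself had r = 0.58 with C/P intake in *b6/b6* mice (n = 12, permutation P = 0.0443, rho = 0.54 with permutation P = 0.0738, limma adjusted P = 0.229). Without the 2 mice farthest from the median intake r was 0.45 (permutation P = 0.188), and the slope was 0.0558 log2 per kcal against 0.0493 over all 12 mice. With libraries rescaled to the same total r was 0.47 (permutation P = 0.128) and the slope 0.0366. Without the far replicates 6 and 12, which had low *Mapk8ip3* counts, r was 0.41 and the slope 0.0405. In *cast/cast* mice, r was 0.25 with C/P intake and -0.27 with total intake (permutation P = 0.462 and 0.409). *Map2k7* (r = -0.72, permutation P = 0.00773, rho = -0.59 with permutation P = 0.0467) and *Mapk8ip2* (r = -0.69, permutation P = 0.0189, rho = -0.37 with permutation P = 0.238) had lower counts in *b6/b6* mice with more C/P intake. Without the 2 mice farthest from the median, r was -0.42 and -0.22 (permutation P = 0.237 and 0.616), and neither passed the test.

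As a description, the genes whose counts varied most like *Mapk8ip3* over the 24 mice, after subtracting the mean of each genotype, were *Mtap7d1*, *Bcl7a*, *A630007B06Rik*, *Brsk1* and *Rarg*, with r from 0.83 to 0.87. The likeness was that of the *cast/cast* mice, where r was 0.92 to 0.95. In *b6/b6* mice the same 5 genes had r from -0.28 to 0.24. Points share library and depth, and in *cast/cast* mice they include replicates 1 and 8 with 6 and 15 *Mapk8ip3* hits. Among the members, *Mapk8* (0.48) and *Mapk8ip2* (0.44) had the highest r with *Mapk8ip3* over the 24 mice and *Mapk8ip1* the lowest (-0.25). The r of *Mapk8* was 0.47 in *b6/b6* against 0.54 in *cast/cast* mice, and that of *Mapk8ip2* was -0.46 against 0.81.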

How the data were processed

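Tag hits per gene were made by the authors, who aligned SOLiD SAGE tags to RefSeq mRNA and GRCm38 with a modified SOLiD SAGE Analysis Software. The signal values deposited are these hits divided by the DESeq size factor of each library. All were whole multiples of 1 step per library (100% of values, tolerance 0.01), which gave the hits back. The table lists 19529 rows, and repeated rows of a gene were used 1 time. Its columns of the authors' own comparison (fold changes and P) were not used. Every gene had a mean of at least 6.03, so lower genes were not analysed here.

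Genes were tested with limma 3.58.1 (lmFit, eBayes with a trend, R 4.3.3) on log2(normalized count + 1), *cast/cast* minus *b6/b6*, with no covariate and Benjamini-Hochberg adjustment over 13998 genes. This scale understates changes of low genes. The same tool regressed expression on intake within each genotype, which replaced an adjustment over the member correlations alone. Shares and correlations were tested by permutation (Python 3.11.15, scipy 1.17.1, 100000 resamples, two-sided). A mouse was far from the others when its median correlation lay more than 3 median absolute deviations under the median mouse. Runs of colony numbers were split at gaps over 300.

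Alternatives were rescaling each library to an equal total, other pseudocounts (0.5, 5), a higher filter (mean of 20), DESeq2 1.42.0 and edgeR 4.0.16 on the recovered hits, study number or runs as covariates, adjusted P, and leaving out far mice. Those without the *b6/b6* far mice alone, and the intake fits with runs or without far mice, were added after seeing the data. The tools were tested on simulated data. Named genes were the members, called list genes, the 4 genes on each side of *Mapk8ip3* and the 5 genes most like it. The other list genes named, those with an unadjusted P under 0.05 or a place in the segment, and *Mtch1* were chosen after their values were seen, as were the replicates singled out. Members and lists were chosen with earlier results of these data known. Mapped marker positions of the segment come from an older build than GRCm38, so its edges are approximate. A total of 249 genes without a position were assigned to no region.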

Additional observations from a re-analysis of the deposited data

How the results depend on the processing

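*Mapk8ip3* kept a log2 difference between -5.46 (edgeR) and -6.05 (within the fourth run of colony numbers) in all settings, and none of the other 8 members was called in any. Directions turned for some estimates near 0. *Mapk8ip1* was -0.10 without the far mice, and *Mapk9* was 0.12 with the runs as a factor. *Map2k4* was 0.27 with the runs as a factor and 0.00064 with study number as a covariate. *Spag9* turned as well, from -0.26 in the main fit to 0.037 with the runs as a factor, and was -0.54 without the far mice. Without the far mice the share differences turned to 0.671 points for *Mapk10*, 0.697 for *Map2k7* and -0.39 for *Mapk8ip1* (adjusted permutation P = 0.914 each). The 0 calls among the pathway lists became 1 with rescaled libraries (*Map3k3*), 2 with edgeR, 1 with DESeq2, 2 with study number (*Map4k3* and *Itch*) and 2 without the far mice. The 208 genes called overall became 391 with edgeR, 395 with DESeq2, 137 without the *b6/b6* far mice alone and 80 at an adjusted P of at most 0.05 with no minimum ratio. No relation of a member with intake passed the all-gene adjustment in any of the 4 alternatives. Rescaling moved the median of all genes from -0.02 to -0.11 on the log2 scale, so small falls are relative to that. The cause of these shifts was not tested. Counts under about 3 hits per library are not resolved at this depth, and *Mapk8ip3* in *cast/cast* replicate 1 lies near that limit. No paired analysis was possible because the mice are separate animals and nothing in the labels pairs them across genotypes. Equal replicate numbers do not mark pairs.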
